A study of Mus musculus with 8 samples.

Results

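Class 4 semaphorins are semaphorins anchored in the plasma membrane by a single transmembrane segment, with a sema domain and an immunoglobulin-like domain outside the cell and a short tail inside it. They act on neighbouring cells mainly through B-type plexins, whose cytoplasmic parts signal to the cytoskeleton and to cell adhesion, and some are cut from the surface by proteases and released. They are best known from axon guidance, synapse formation and immune cells, and in melanoma they are of interest as membrane-bound relatives of secreted SEMA3E, the ligand that signals through plexin D1. The members were all genes that the array annotation names Sema4a, Sema4b, Sema4c, Sema4d, Sema4f or Sema4g, with every probe for them: 6 of 34834 gene names and 7 of 55698 probes. Of these 7 probes, 6 (1 for each gene) passed the filter on low signal and were tested.

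RNA came from B16 cells, a mouse melanoma line, and was hybridised in 1 colour to 8 Agilent mouse expression arrays. There were 4 groups of 2 arrays: control cells taken at 0 h, cells given SEMA3E for 2 h, cells given SEMA3E for 8 h, and cells given cytochalasin D, a drug that blocks actin filament growth, for 8 h. All cells grew in high-glucose medium with 5% fetal bovine serum; the labels give no dose, call the control source non-targeted, and describe the paired arrays as biological replicates without saying whether they came from separate cultures. The only control was taken at 0 h, so treatment and time in culture cannot be told apart in any comparison with control, at 2 h or at 8 h.

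The arrays lay on 1 slide, scanned on 1 day, with the arrays of a group next to each other, so slide position and group cannot be told apart. The scanner software marked 37.8% to 48.2% of an array's spots as well above background and none as saturated. Overall signal was unequal: taken over every spot, the 75th percentile came to 59.3 and 61.1 for the pair given SEMA3E for 2 h, 66.8 for the second cytochalasin D array and 111 to 154 for the other 5 arrays. Each level given here is therefore a log2 signal relative to the same array's 75th percentile, computed from 18687 probes that were above background everywhere. A level of 0 equals that percentile, and a level lower by 1 is a 2-fold lower signal. Of the melanocyte marker genes, 7 of 7 were well above background on all 8 arrays, and their summed linear level lay between 90.9 and 137 times the scaling percentile. The defining leukocyte marker Ptprc was marked on 1 array and Cd14 on none, and the fibroblast markers Col3a1, Pdgfra and Thy1, endothelial Cdh5, keratinocyte Cdh1 and neuronal Syt1 were marked on none. Other markers of the same lists were marked: Cd3e and Itgam (leukocyte), Col1a1 (fibroblast), Pecam1 and Kdr (endothelial) and Tubb3 and Snap25 (neuron) on all 8 arrays, Krt14 (keratinocyte) on 6 and Krt5 on 3.

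The 60-base probes of the members are shown because each gene's measurement rests on a single tested sequence. The sequences are as printed in the array files, 5′ to 3′, and those files list no genome position for them. Capitals in the Sema4c probe mark an unbroken run of alternating T and G, and capitals in the Sema4d probe mark AATAAA, the letters of the common polyadenylation signal.
Sema4a: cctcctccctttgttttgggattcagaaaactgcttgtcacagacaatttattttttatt
Sema4b: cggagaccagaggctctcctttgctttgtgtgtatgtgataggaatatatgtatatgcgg
Sema4c: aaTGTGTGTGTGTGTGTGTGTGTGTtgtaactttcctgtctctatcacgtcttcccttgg
Sema4d: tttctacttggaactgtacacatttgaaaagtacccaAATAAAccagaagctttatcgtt
Sema4f, tested probe: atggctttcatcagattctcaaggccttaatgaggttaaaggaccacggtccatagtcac
Sema4f, second probe: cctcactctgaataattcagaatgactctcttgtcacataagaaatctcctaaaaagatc
Sema4g: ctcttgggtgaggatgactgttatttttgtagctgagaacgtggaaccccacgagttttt
The Sema4a, Sema4d and second Sema4f probes had 35.0%, 33.3% and 35.0% G or C bases, and the other 4 had 45.0%, against a median of 43.3% over all probes. AATAAA occurred on the printed strand of 10.1% of all probes. The longest stretch that the Sema4c probe shared with a probe for another gene was 28 bases, with 1 probe, whereas the longest for the other members was 13 to 15 bases.

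Each member except Sema4g was well above background on all 8 arrays through its tested probe, and no member passed the test in any comparison. Sema4g, a ligand of plexin B2, was the member whose groups stood farthest apart: its mean was highest after 8 h of SEMA3E and lowest after cytochalasin D. The group mean of Sema4b was highest with cytochalasin D, and Sema4a, Sema4c and Sema4d varied little, with all 8 arrays inside a range of 0.75, 0.53 and 0.35 on the log2 scale. Over the same arrays the ranges of Sema4b, Sema4f and Sema4g were 2.44, 2.03 and 2.93. The small Sema4c range rests on the scanner's processed signals, which are set beside its mean spot signals at 2 h below. Because the RNA is from bulk cells, a lower level cannot be separated into fewer cells holding the transcript and less of it per cell.

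**Figure D1:**
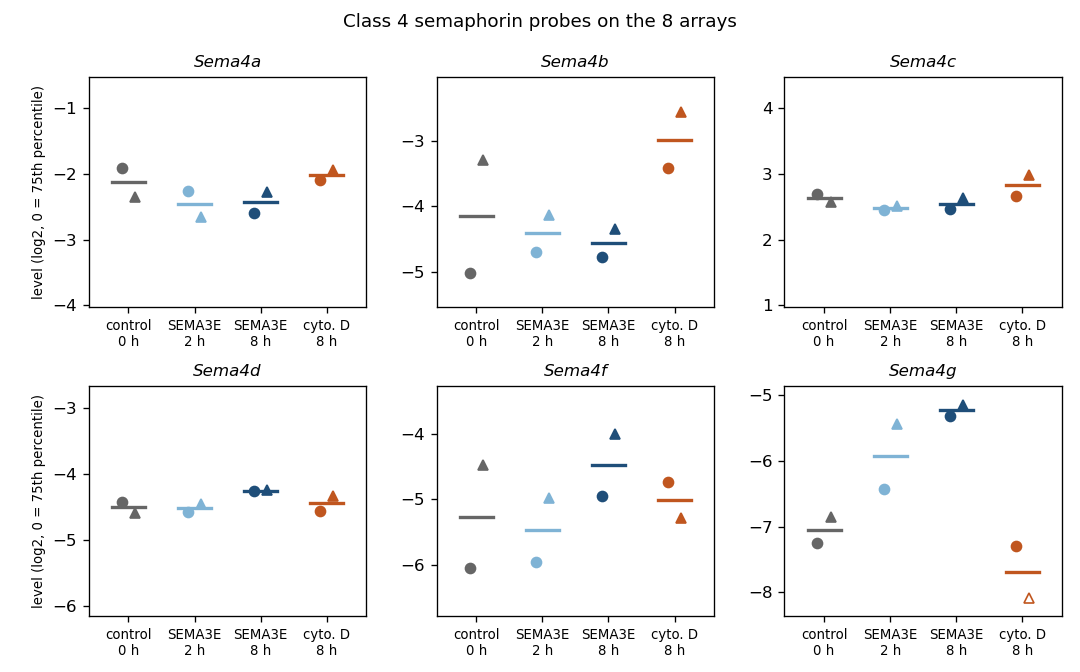
Normalized log2 level (0 is the array's 75th percentile) of the tested probe of each class 4 semaphorin; circles are replicate 1, triangles replicate 2, bars the means of 2 arrays, and the open triangle marks a spot not well above background. Every panel spans the same log2 range: Sema4g separates the SEMA3E 8 h arrays (-5.31 and -5.15) from the cytochalasin D arrays (-7.30 and -8.08), while Sema4d stays between -4.58 and -4.24.

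Sema4g works with Sema4c on plexin B2 in the developing mouse cerebellum. Its level was -7.25 and -6.85 on the control arrays, -6.43 and -5.44 after SEMA3E for 2 h, -5.31 and -5.15 after SEMA3E for 8 h, and -7.30 and -8.08 after cytochalasin D. In these scaled levels the 4 groups did not overlap, in the order cytochalasin D, control, SEMA3E 2 h, SEMA3E 8 h. The upper cytochalasin D array lay just under the lower control array. The group means ± SD (n = 2 each) were -7.69 ± 0.55, -7.05 ± 0.28, -5.93 ± 0.70 and -5.23 ± 0.12 in that order.

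The Sema4g mean after SEMA3E for 8 h was above control by 1.82 ± 0.42 (SE), or 3.52-fold, with a 95% interval from 0.84 to 2.79, limma adjusted p = 0.584 and unadjusted p = 0.00288. This difference was larger in size than that of 98.6% of the 18073 genes tested, and by unadjusted p it ranked 89. Cytochalasin D lay below SEMA3E at 8 h by a difference of -2.46 ± 0.42 (interval -3.43 to -1.49, 5.51-fold), with limma adjusted p = 0.332 and unadjusted p = 0.000478. That was larger than the difference of 99.4% of genes and ranked 26, but only 1 of the 2 cytochalasin D arrays measured Sema4g well above background. Without the other array the difference was -2.07, and under the normexp background correction described next it was -0.46. After 2 h of SEMA3E the difference from control was 1.11 ± 0.42 (limma adjusted p = 0.518, unadjusted 0.0301), the 8 h mean exceeded the 2 h mean by 0.70 ± 0.42 (adjusted p = 0.487), and cytochalasin D differed from control by -0.64 ± 0.42 (unadjusted p = 0.163). With these values, no Sema4g comparison passed the adjusted threshold, whether or not its groups were neighbours in the order of the 4 groups. The limma F test over the 4 groups gave Sema4g F = 14.1, with unadjusted p = 0.00196, rank 83 and adjusted p = 0.401.

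The Sema4g spot was dim, and its differences depended on how signal and background were processed. Its processed signal was 18.2 and 20.0 on the control arrays, 13.9 and 26.9 at 2 h, 68.5 and 63.5 at 8 h, and 13.0 and 5.20 with cytochalasin D, where replicate 2 was not well above background. The mean spot signal before subtraction was 52.3 and 53.5 in controls, 46.2 and 55.5 at 2 h, 107 and 117 at 8 h, and 45.8 and 36.2 with cytochalasin D, over a local background of 23.5 to 27.0. The SEMA3E 8 h arrays were thus highest at the spot itself, before any scaling. The 2 h arrays were not above control there: in both measures, 1 lay below and 1 above both control arrays. Their separation from control appeared only in the scaled levels. The 75th percentile taken over every spot, which differs from the scaling percentile, was 59.3 and 61.1 at 2 h and 129 and 132 in controls. It was highest on the SEMA3E 8 h arrays, at 154 and 141. Normexp background correction with an offset of 50 was also run on the mean spot signal and local background, in place of the scanner's processed signal. The differences from control were then 0.94 at 2 h, 0.75 at 8 h and 0.29 with cytochalasin D, the last with its sign turned. Under normexp the 2 h difference had limma adjusted p = 0.0486, in a setting where 3437 of all genes passed and the median gene stood 0.39 above control. Without SEMA3E 2 h replicate 1 the 2 h difference was 1.61, and without replicate 2 it was 0.62. With each of the 8 arrays left out in turn, the 8 h difference from control lay between 1.62 and 2.02. The arrays' background was not equal: negative control spots averaged 41.6 on SEMA3E 8 h replicate 2 and 17.9 to 22.2 on the other 7 arrays. The summed linear level of the 5 leukocyte markers, 2 of which were marked on all 8 arrays, was also higher in both SEMA3E groups than in controls, though in another order than Sema4g: 0.0503 to 0.0596 in controls, 0.0876 to 0.0986 at 2 h, 0.0771 to 0.0936 at 8 h and 0.0471 to 0.0650 with cytochalasin D. Leukocyte markers were not alone in this at 8 h. The endothelial sum was 0.0748 to 0.0846 against 0.0451 to 0.0600 in controls, and the keratinocyte sum 0.0127 to 0.0138 against 0.0101 to 0.0126. The fibroblast sums overlapped, and the neuronal sum was lower at 8 h, at 1.26 to 1.31 against 1.52 to 1.55. That neuronal sum is mostly Tubb3, with a mean level of 0.61 in controls and 0.33 at 8 h. The dim neuronal marker Snap25 was higher at 8 h, at -5.01 and -5.26 against -6.08 and -6.12 in controls. The part of the unequal background or of any of these marker lists in the Sema4g values was not tested.

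**Figure D2:**
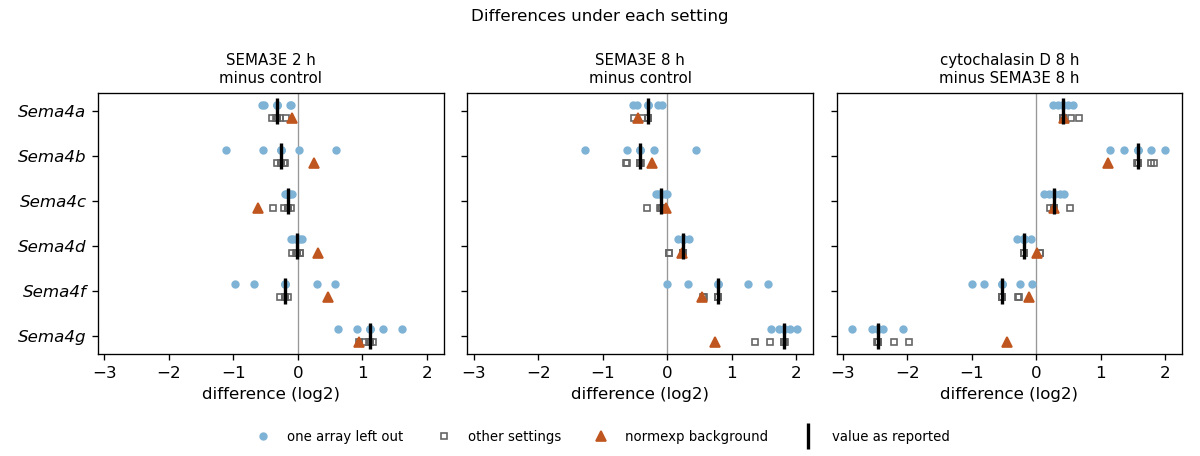
Difference in log2 units (horizontal axis) of each of the 6 members in 3 comparisons, as the value reported (black bar), with 1 array left out (filled circles), under normexp (triangles) and under the remaining settings (open squares). For Sema4g, the SEMA3E 8 h minus control difference is 1.82 as reported and 0.75 under normexp.

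Sema4b, which has been tied to synapse formation in cultured neurons, read -5.00 and -3.29 in the controls, -4.69 and -4.12 at 2 h, -4.78 and -4.35 at 8 h of SEMA3E, and -3.42 and -2.56 with cytochalasin D. Both cytochalasin D arrays lay above both SEMA3E 8 h arrays, while the control arrays spanned most of the range. The cytochalasin D mean exceeded the SEMA3E 8 h mean by 1.57 ± 0.58 (2.97-fold, 95% interval 0.22 to 2.93), with unadjusted p = 0.0285 and limma adjusted p = 0.442. Against control the cytochalasin D difference was 1.16 ± 0.58 (unadjusted p = 0.0834). That second value rests on the controls, whose 2 arrays differed by 1.71: it was 0.30 without control replicate 1 and 2.01 without control replicate 2. The SEMA3E differences from control were -0.26 ± 0.58 at 2 h and -0.41 ± 0.58 at 8 h, and without control replicate 2 they were 0.60 and 0.44, whereas without control replicate 1 they were -1.12 and -1.27.

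Sema4a is unusual among the members in that plexin D1, the SEMA3E receptor, is among its own receptors, and in T cells it takes part in activation and differentiation. Its level was -1.91 and -2.36 in the controls, -2.26 and -2.66 at 2 h, -2.59 and -2.27 at 8 h of SEMA3E, and -2.09 and -1.94 with cytochalasin D. Both cytochalasin D arrays were above both SEMA3E 8 h arrays, by 0.41 ± 0.29 (limma adjusted p = 0.597), and in the other 4 comparisons the groups overlapped. The differences from control were -0.33 ± 0.29, -0.30 ± 0.29 and 0.11 ± 0.29 for SEMA3E 2 h, SEMA3E 8 h and cytochalasin D, and in each the arrays overlapped those of the control. The transcript for plexin D1, Plxnd1, had group means of 3.18 in controls, 3.07 and 3.14 after SEMA3E for 2 h and 8 h, and 3.54 with cytochalasin D. Its differences from control were -0.11 ± 0.26, -0.05 ± 0.26 and 0.36 ± 0.26, and it did not pass the test.

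Sema4d, also called CD100, binds plexin B1 on many cells and CD72 on B cells, and is shed from the surface by metalloproteases. Its probe was printed in 2 spots, which differed on an array by a median of 0.145 and by at most 0.876 on the log2 scale. The averaged level was -4.41 and -4.58 in the controls, -4.58 and -4.46 at 2 h, -4.26 and -4.24 at 8 h of SEMA3E, and -4.55 and -4.33 with cytochalasin D. The SEMA3E 8 h arrays were above every other array, by 0.25 ± 0.24 from control (adjusted p = 0.914) and 0.27 ± 0.24 from SEMA3E 2 h, and the cytochalasin D mean minus the SEMA3E 8 h mean was -0.19 ± 0.24. These differences are smaller than the largest one between its paired spots, and the last 2 turn sign under other scalings.

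Sema4f, a semaphorin of neurons and glia with a tail that binds a postsynaptic scaffold protein, read -6.05 and -4.48 in the controls, -5.95 and -4.98 at 2 h, -4.95 and -4.01 at 8 h of SEMA3E, and -4.73 and -5.29 with cytochalasin D. The controls differed by 1.56 between themselves and overlapped each other group, with SEMA3E 8 h replicate 2 above both. Both 8 h SEMA3E arrays lay above both 2 h arrays, by 0.98 ± 0.60 in the means (limma adjusted p = 0.497), and the 8 h difference from control was 0.79 ± 0.60 (adjusted p = 0.885). Without control replicate 1 that 8 h difference was 0.00 and without control replicate 2 it was 1.57. The second Sema4f probe, designed to RefSeq transcript variant 2 per the array annotation, was not well above background on any array. Its signal ran from 1.73 to 3.84, where the lowest signals marked as above background were 6.62 to 19.0, so no fold between groups is given for it.

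**Figure D3:**
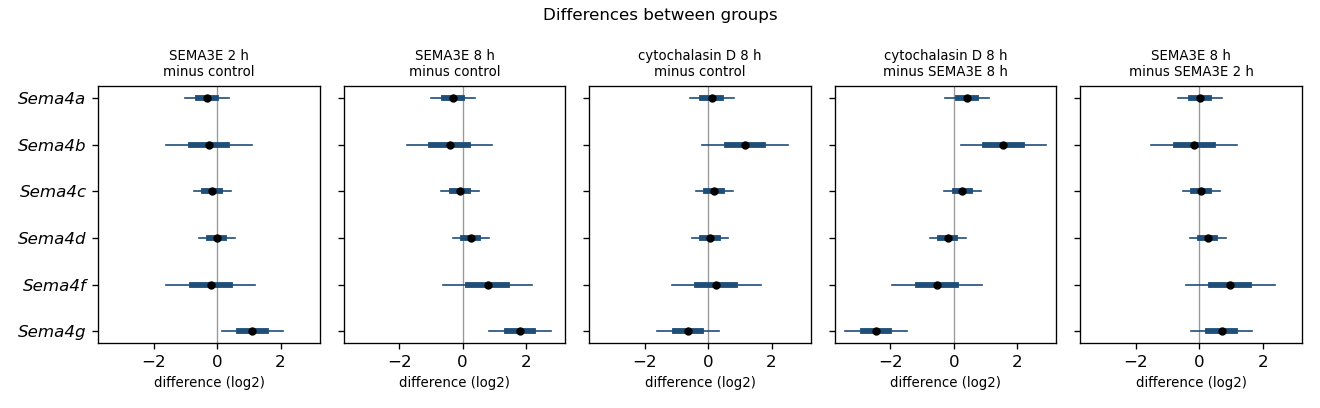
Difference in log2 units (horizontal axis) for the 6 members in the 5 comparisons; points are limma estimates, thick bars the SE and thin bars the 95% interval. The Sema4g intervals exclude 0 for SEMA3E at 2 h and 8 h against control and for cytochalasin D against SEMA3E 8 h, as does that of Sema4b in the last, but no member passed after adjustment over all 18073 genes.

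Sema4c, a ligand of plexin B2 in neural development, angiogenesis and muscle, had processed signals from 6550 to 17890. Its level was 2.69 and 2.58 in the controls, 2.45 and 2.52 at 2 h, 2.46 and 2.64 at 8 h of SEMA3E, and 2.67 and 2.98 with cytochalasin D. Both 2 h arrays lay below both control arrays (difference of means -0.15 ± 0.25, adjusted p = 0.852), and both cytochalasin D arrays lay above both SEMA3E 8 h arrays (0.28 ± 0.25, adjusted p = 0.674). The 2 h arrays had processed signals of 6550 and 6683, but mean spot signals of 7357 and 3675. Under normexp, which starts from the mean spot signal, the 2 h difference from control was -0.62 ± 0.32 (limma adjusted p = 0.172). The remaining differences from control were -0.09 ± 0.25 at 8 h of SEMA3E and 0.19 ± 0.25 with cytochalasin D.

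The Sema4c probe shares a sequence feature with other bright probes on the array. The TG run in the probe printed above is 23 bases long, at positions 3 to 25 from the 5′ end. A run of TG or GT repeats that long, on the printed strand, occurred in 38 of the 55698 probes (0.0682%), a search made after the Sema4c sequence had been seen. All 38 were well above background on all 8 arrays, against 33.3% of all probes, and their mean signals lay between percentiles 96.8 and 99.7 of all probes, with a median at 99.1. The Sema4c probe stood at percentile 98.2, and 31 of the 38 were brighter. Brightness went up with run length: the median percentile was 49.8 for the 55278 probes with runs of at most 7 bases, 58.9 for 298 probes with 8 to 11, 84.7 for 47 with 12 to 15 and 95.6 for 37 with 16 to 22. Runs of the complement, CA or AC, of at least 23 bases occurred in 14 probes, whose median percentile was 82.4 (range 71.6 to 84.3).

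Over the 8 arrays the Sema4c level had Pearson r = 0.70 with the mean of the other 37 TG-run probes, a description over arrays that share slide, labelling and scaling. Against single probes of that set r ran from 0.046 to 0.903 with a median of 0.636. The second cytochalasin D array was highest in both, with the mean of the 37 at 3.64 and Sema4c at 2.98. On the other arrays these ran from 2.91 to 3.36 and from 2.45 to 2.69, so the correlation leans on that array. With the other members, whose tested probes have TG runs of at most 7 bases, r of Sema4c ran from -0.73 (Sema4g) to 0.74 (Sema4a). The mean of the 37 differed from control by 0.10 at 2 h and -0.20 at 8 h of SEMA3E and by 0.20 with cytochalasin D, where Sema4c gave -0.15, -0.09 and 0.19. Between cytochalasin D and SEMA3E 8 h the mean of the 37 differed by 0.40 and Sema4c by 0.28. Whether labelled RNA of other transcripts with such repeats contributed to the Sema4c signal was not tested.

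**Figure D4:**
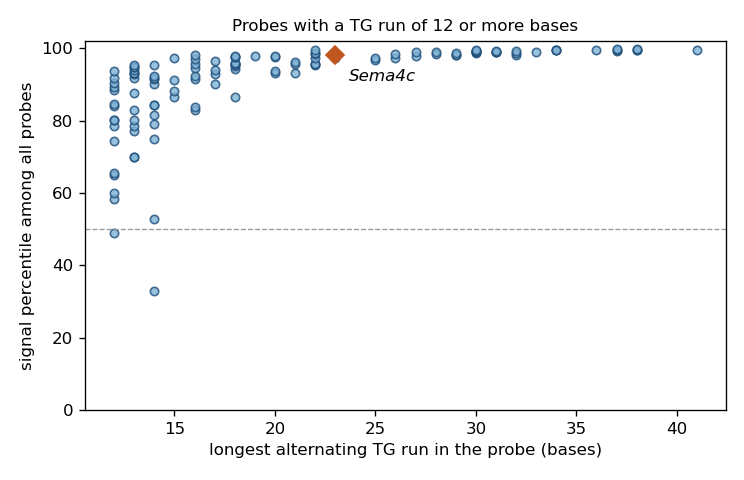
Signal percentile among all probes (vertical axis) against the length in bases of the longest TG run (horizontal axis), for probes with a run of 12 or more bases; each circle is a probe, the diamond is Sema4c and the dashed line marks percentile 50. All 38 probes with a run of at least 23 bases lie between percentiles 96.8 and 99.7.

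Counted as a family, 0 of 6 members passed limma's adjusted threshold of 0.05 in any of the 5 comparisons. Among all 18073 genes the share that passed was 0% for SEMA3E 2 h against control, 0.00553% (1 gene) for SEMA3E 8 h against control, 0% for cytochalasin D against control, 0.00553% (1 gene) for cytochalasin D against SEMA3E 8 h, and 0% for SEMA3E 8 h against 2 h. Each member probe taken singly gave the same 0, against 0.00405% (1 probe) of the 24667 probes tested for SEMA3E 8 h against control and 0% in the other comparisons. Without SEMA3E 2 h replicate 1, 416 genes passed for SEMA3E 2 h against control and 461 for SEMA3E 8 h against 2 h, and still 0 members. At an unadjusted p under 0.05, Sema4g alone passed at 2 h against control (9.47% of all genes) and at 8 h against control (6.14%), no member passed for cytochalasin D against control (2.44%), Sema4b and Sema4g passed for cytochalasin D against SEMA3E 8 h (11%), and no member passed for SEMA3E 8 h against 2 h (11.6%). In the F test Sema4g was the 1 member with an unadjusted p under 0.05 (10.4% of all genes). With 2 arrays against 2 an exact permutation test cannot go below p = 0.333, and the number of arrays limits the precision of every value here.

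The members whose groups did not overlap are read against the share of all genes of which the same held. At 2 h, Sema4g was higher on both arrays than on both controls (24.5% of all genes were) and Sema4c lower (15.2%). At 8 h of SEMA3E, Sema4d and Sema4g were higher (25.1%) and no member lower (12.3%). With cytochalasin D, no member was higher than control on both arrays (15.9%) and Sema4g was lower (13%). Against SEMA3E 8 h, cytochalasin D was higher for Sema4a, Sema4b and Sema4c (19.6%) and lower for Sema4d and Sema4g (32.8%), and SEMA3E at 8 h exceeded 2 h for Sema4d, Sema4f and Sema4g (27.9%). The difference was above 0 for 1 of 6 members at 2 h against control (54.9% of all genes), 3 at 8 h of SEMA3E (63.4%), 5 with cytochalasin D (53.4%), 3 for cytochalasin D against SEMA3E 8 h (39.7%) and 5 for SEMA3E 8 h against 2 h (56.4%). The members' median difference was -0.17 at 2 h, 0.08 at 8 h and 0.15 with cytochalasin D against control, where the median of all genes was 0.06, 0.12 and 0.03. For cytochalasin D against SEMA3E 8 h the medians were 0.04 and -0.13, and for SEMA3E 8 h against 2 h they were 0.17 and 0.09. The comparisons share arrays, so these counts are not independent of each other.

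Of 19 receptors and partners of the family, 15 were tested and 0 passed in any comparison after adjustment. Plxnb3, Timd2 (Tim-2, a Sema4a receptor on T cells) and the coreceptor Nrp1 were not well above background on enough arrays, and Arhgef12, whose product binds B plexins, lacked a value on 1 array. Plxnb2, the receptor for Sema4c and Sema4g, had group means of 1.96 in controls, 2.30 and 2.43 after SEMA3E for 2 h and 8 h, and 2.26 with cytochalasin D, and its 8 h difference was 0.46 ± 0.30 (limma adjusted p = 0.877). Plxnb1, the receptor for Sema4d, had means of -3.61, -4.08, -2.95 and -3.29 in the same order. Cd72, the Sema4d receptor of B cells, differed by 0.76 ± 0.30 at 2 h from control (adjusted p = 0.518). Mmp14, a membrane metalloprotease that sheds Sema4d, had means of -5.62, -5.76, -4.40 and -5.65, with an 8 h difference from control of 1.23 ± 0.45 (unadjusted p = 0.0288, adjusted p = 0.763) and -1.25 ± 0.45 between cytochalasin D and SEMA3E 8 h (adjusted p = 0.44). Above control were 8 of 15 partners at 2 h (54.9% of all genes), 11 at 8 h of SEMA3E (63.4%) and 11 with cytochalasin D (53.4%). The partners' medians were 0.00, 0.46 and 0.12, where those of all genes were 0.06, 0.12 and 0.03.

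For each member the 3 genes with the most similar profile over the 8 arrays were found among about 10967 named genes well above background on every array. Those for Sema4g were H2bc14 (r = 0.987), Ypel2 (0.974) and Psg23 (0.973), and 86 genes exceeded 0.9. For Sema4b they were Neurl4 (0.987), Cul5 (0.985) and Klhl9 (0.983), with 190 genes above 0.9, and for Sema4f C1qtnf5 (0.981), Cenpt (0.980) and Mus81 (0.977), with 228. For Sema4c they were Il17d (0.987), Ccdc9b (0.981) and Rabep2 (0.974), with 45 genes, and for Sema4a Cherp (0.958), Bcdin3d (0.952) and Fhod3 (0.946), with 10. Sema4d had 2 genes above 0.9, Adgrg3 (0.950) and Cert1 (0.926), followed by St8sia5 (0.880). With 8 arrays that share scaling, high correlations are frequent, and these are descriptions with no test.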

How the data were processed

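Values were intensities (processed signals) made by the authors' scanner software, Agilent Feature Extraction 11.5.1.1 per the file headers, with background subtracted. The processed signal was not the subtraction alone, because it could exceed the mean spot signal. For Sema4c on SEMA3E 2 h replicate 2 it was 6683, against a mean spot signal of 3675. The arrays had not been brought to a common scale in the deposited scanner files used here. From them, log2 signals were taken after setting spots the software marked as outliers to missing, repeated spots were averaged, and the 75th percentile of each array, computed from 18687 probes marked well above background on every array, was subtracted. Control spots were left out. The test took in probes with no missing value that were marked well above background on both arrays of at least 1 group (24667 probes), and each of 18073 genes took its tested probe with the highest mean. Gene names came from the array files, updated through RefSeq accessions (GRCm38.p6 table; 27673 probes matched, 1303 gene names updated).

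Groups were compared with limma 3.58.1 in R 4.3.3 (a mean per group, eBayes, two-sided, Benjamini-Hochberg over all genes, adjusted p threshold 0.05), tested on simulated data first; all 4 groups shared one estimate of the spread with 4 residual degrees of freedom. All members were named, together with their fixed list of receptors and partners and the 3 genes most correlated with each. The members and lists were chosen with earlier results of these data known, and the search for TG runs was added after the sequences were seen. Alternatives were quantile scaling, a percentile over all probes, normexp with offset 50, other filters, other probe rules and the authors' deposited table of signal intensity per gene name. Fits with only the groups compared, a replicate block, an intensity trend in eBayes and each array left out were also run. The deposited table's combining step is not given in the sources used here. P-values measure only the spread between these arrays, which may be technical.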

Additional observations from a re-analysis of the deposited data

How the results depend on the processing

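No class 4 semaphorin passed in any comparison with the values reported, and 1 did under a single alternative: normexp background correction, where 1 member (Sema4g, SEMA3E 2 h against control) and 1 member probe passed. The sign of a member's difference turned in 17 of 300 other-setting values and 18 of 240 values with an array left out. The cause was not tested. Many of these values could not turn. For every member, the difference is unchanged by dropping the low-signal filter, averaging a gene's tested probes, the replicate block or the intensity trend. The same holds for fitting only the groups compared and for leaving out an array of another group. The turned signs include differences between groups that did not overlap. Those were of Sema4g for cytochalasin D minus control and SEMA3E 8 h minus 2 h. For Sema4d they were cytochalasin D minus SEMA3E 8 h and SEMA3E 8 h minus 2 h. Under normexp the values were, for SEMA3E 2 h minus control, 0.25 for Sema4b, 0.31 for Sema4d and 0.47 for Sema4f, for cytochalasin D minus control -0.019 for Sema4a and 0.29 for Sema4g, for cytochalasin D minus SEMA3E 8 h 0.0053 for Sema4d, and for SEMA3E 8 h minus 2 h -0.36 for Sema4a, -0.070 for Sema4d and -0.20 for Sema4g. Under quantile scaling they were, for Sema4d, 0.029 for SEMA3E 2 h minus control and 0.057 for cytochalasin D minus SEMA3E 8 h, and -0.19 for Sema4a and -0.0036 for Sema4d for SEMA3E 8 h minus 2 h. With the percentile over all probes they were 0.028 and 0.054 for Sema4d in the same pair of comparisons, and -0.24 for Sema4a and -0.20 for Sema4c for SEMA3E 8 h minus 2 h. With each array left out, SEMA3E 2 h minus control ran from -1.12 to 0.60 for Sema4b, -0.10 to 0.066 for Sema4d and -0.98 to 0.58 for Sema4f, and SEMA3E 8 h minus control from -1.27 to 0.44 for Sema4b and -0.17 to 0.00028 for Sema4c. Cytochalasin D minus control ran from -0.11 to 0.34 for Sema4a, -0.052 to 0.17 for Sema4d and -0.53 to 1.04 for Sema4f, and SEMA3E 8 h minus 2 h from -0.17 to 0.22 for Sema4a, -0.44 to 0.13 for Sema4b and -0.025 to 0.15 for Sema4c. With an array left out, the lone array of its group was assumed to vary like the others. Normexp moved the median of all genes by 0.33 at 2 h against control, quantile scaling by -0.16 and the all-probe percentile by -0.22 at 8 h against control. Over all genes, the count at 2 h against control went from 0 to 3437 under normexp, 20 in the authors' deposited table and 416 without SEMA3E 2 h replicate 1, at 8 h against control from 1 to 13 in that table, and at 8 h against 2 h of SEMA3E from 0 to 20 in that table and 461 without SEMA3E 2 h replicate 1. Same-numbered replicates did not pair (correlations of deviations from -0.15 to 0.14), and the fit with the replicate number as a block called 0 members in each comparison, with 7 genes in all at 8 h against control. Dim signal limits Sema4g and the second Sema4f probe most. The tested Sema4f probe was also dim on some arrays. Its processed signal ran from 19.3 on SEMA3E 2 h replicate 1 to 140 on SEMA3E 8 h replicate 2.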
